A study of Mus musculus with 24 samples.

Results

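Neurotrophins and the related factor GDNF were followed through 8 genes measured in the hippocampus of mouse pups: the ligands Bdnf, Ntf3 and Gdnf, the kinase receptors Ntrk2 (TrkB) and Ntrk3 (TrkC), the shared receptor Ngfr (p75), the GDNF-binding subunit Gfra1 and the sorting receptor Sort1 (sortilin). All non-control probes that the array annotation assigns to these genes were taken, which gave 14 probes out of 55681, and 8 gene names out of 36163. Hippocampal RNA of 15 C57BL/6 pups, all labelled male and killed on postnatal day (P) 9, was hybridized to 1-colour Agilent arrays, 1 pup per array, and the hippocampi of the left and right side were pooled for each pup. There were 5 controls (Con), 5 pups given morphine at 2 mg/kg (MS2) and 5 given 5 mg/kg (MS5). From P5 onward MS2 and MS5 pups were injected with morphine 2 times a day and were also kept away from the dam during the day and exposed to brief anoxia followed by oxygen. Con pups stayed with the dam, were handled as little as possible and had no injection. Morphine and stress therefore cannot be told apart in a comparison with Con, whereas MS5 and MS2 shared the stress and differed in dose. The litter of each pup was not used here, and the p-values measure the spread between these pups.

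Neurotrophins are secreted proteins that keep neurons alive and shape their axons, dendrites and synapses. BDNF binds TrkB and NT-3 (from Ntf3) binds TrkC, and each of these receptors is also made in a truncated form that lacks the kinase domain. p75 binds all neurotrophins and, together with sortilin, their unprocessed precursors. GDNF is a separate ligand that is bound by GFRα1 and signals through the kinase Ret. In the hippocampus Bdnf is known chiefly as a transcript of excitatory principal neurons whose level follows neuronal activity, whereas Gdnf is known chiefly from the striatum.

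The probes distinguish receptor forms, and the sequences of 4 probes that lie in coding sequence are shown because they mark what sets the Ntrk3 forms apart and, for Ntrk2, a stretch common to its forms. The Ntrk2 kinase and truncated probes and truncated probe 1 of Ntrk3, which also enter the kinase to truncated ratios, are named without their sequences. The kinase probe of Ntrk3 covers the codons of the DFG motif of the kinase domain, given in capitals. The truncated-form probe of Ntrk3 ends with the stop codon of that form, also in capitals. The Ntrk2 probe shown lies in the stretch around the membrane-spanning segment that all forms share, and no part of it is in capitals. In the order printed below, 5′ to 3′ along the transcript, the positions on build mm9 are chr13:58979563-58979622 (plus strand), chr7:85392044-85392103, chr7:85337455-85337514 and chr7:85447515-85447574 (minus strand).
Ntrk2, both forms: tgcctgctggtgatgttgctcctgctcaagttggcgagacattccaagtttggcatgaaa
Ntrk3, kinase probe 1: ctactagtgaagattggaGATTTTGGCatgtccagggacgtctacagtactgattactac
Ntrk3, kinase probe 2: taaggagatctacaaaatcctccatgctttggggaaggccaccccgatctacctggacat
Ntrk3, truncated probe 2: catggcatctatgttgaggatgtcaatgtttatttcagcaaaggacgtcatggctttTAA
Of the other probes, A_51_P393454 belongs to the kinase form of Ntrk2 and A_65_P04961 to its truncated form, and A_52_P500274 is truncated probe 1 of Ntrk3. Sort1 has a probe that spans an exon junction (A_51_P517145, probe 1) and a second at position 6674 of the transcript (A_52_P590396, probe 2). The remaining genes have 1 probe each.

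Signal values are on the authors' log2 scale after background adjustment and quantile normalization, and a difference of 1 on this scale is a doubling. All 14 probes were well above background on all 15 arrays, and none was saturated. Features of single arrays touch the results. On the array MS2 replicate 4 the summed signal of 16 markers of hippocampal principal neurons was 14.92, against 16.61 to 17.02 on the other arrays, and that of 15 hypothalamic and thalamic markers was 15.85, against 13.42 to 14.73. The array MS5 replicate 9, labelled male, carried Xist (the transcript of the inactive X chromosome) at 11.34, against 5.89 to 6.08 on the others. The array MS2 replicate 5 had a median spot signal of 58.2 (intensity units) against 121 to 154 elsewhere. Of 20 choroid plexus markers, 17 passed an unadjusted p of 0.05 in MS5 against Con, where 4.2% of all genes did. The list holds genes that the study reported as lower in MS5 on these arrays, Aqp1, Cldn2 and Kl among them, so the count is not a separate test. The summed signal of the list ranged from 14.54 to 18.37 in MS5 and from 18.07 to 18.68 in Con. The part of these array features in the differences reported next was not tested.

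No neurotrophin, receptor or partner differed between groups by the study's threshold, a change over 1.5-fold with an unadjusted p under 0.05. This held for 0 of 14 probes in MS2 against Con, in MS5 against Con and in MS5 against MS2, where 0.0233%, 0.228% and 0.129% of all probes passed. At an unadjusted p under 0.05 alone (limma across all probes) 0 of 14 probes passed in MS2 against Con, where 4.17% of all probes did, 0 passed in MS5 against Con (3.9% of all probes), and 1 passed in MS5 against MS2 (3.97% of all probes). That probe was Sort1 probe 1. After Benjamini-Hochberg adjustment 0 of 14 probes passed in any comparison, as did 0% of all probes. The groups of 5 did not separate fully at any of the 14 probes in any comparison, against 0.702%, 0.828% and 0.621% of all probes, in the same order. Beside limma's p, the two-sided exact permutation p over the assignments of 5 against 5 arrays is given for single differences, and by it 0 of 14 probes were under 0.05 in any comparison. In bulk tissue, fewer cells of a type and less RNA per cell cannot be told apart.

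The 14 differences from Con were small and balanced in sign. There were 7 probes higher and 7 lower in MS2 and 7 higher and 7 lower in MS5. Their medians were -0.01 and -0.01, beside 0.00 and 0.00 over all probes. Between MS5 and MS2, 9 probes were higher and 5 lower, with a median of 0.03 beside 0.00. The 95% confidence interval of the difference lay inside 1.5-fold in either direction for 11 probes in MS2 against Con, for 11 in MS5 against Con and for 12 in MS5 against MS2. The data therefore bound most of the receptor probes closely and Bdnf, Ntf3, Gdnf and Ngfr less closely. A straight line on dose (0, 2 and 5 mg/kg) passed an unadjusted p of 0.05 at 0 of 14 probes, against 3.97% of all probes. The level of 0 mg/kg was Con, which had neither stress nor injection, so dose and stress cannot be told apart in this slope.

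The 15 arrays lay on 2 slides. The sign of the difference was the same on both slides for 6 of 14 probes in MS2 against Con, for 3 in MS5 against Con and for 3 in MS5 against MS2. With the slide as a term in the fit, 0 of 14 probes passed an unadjusted p of 0.05 in each of the 3 comparisons.

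**Figure D1:**
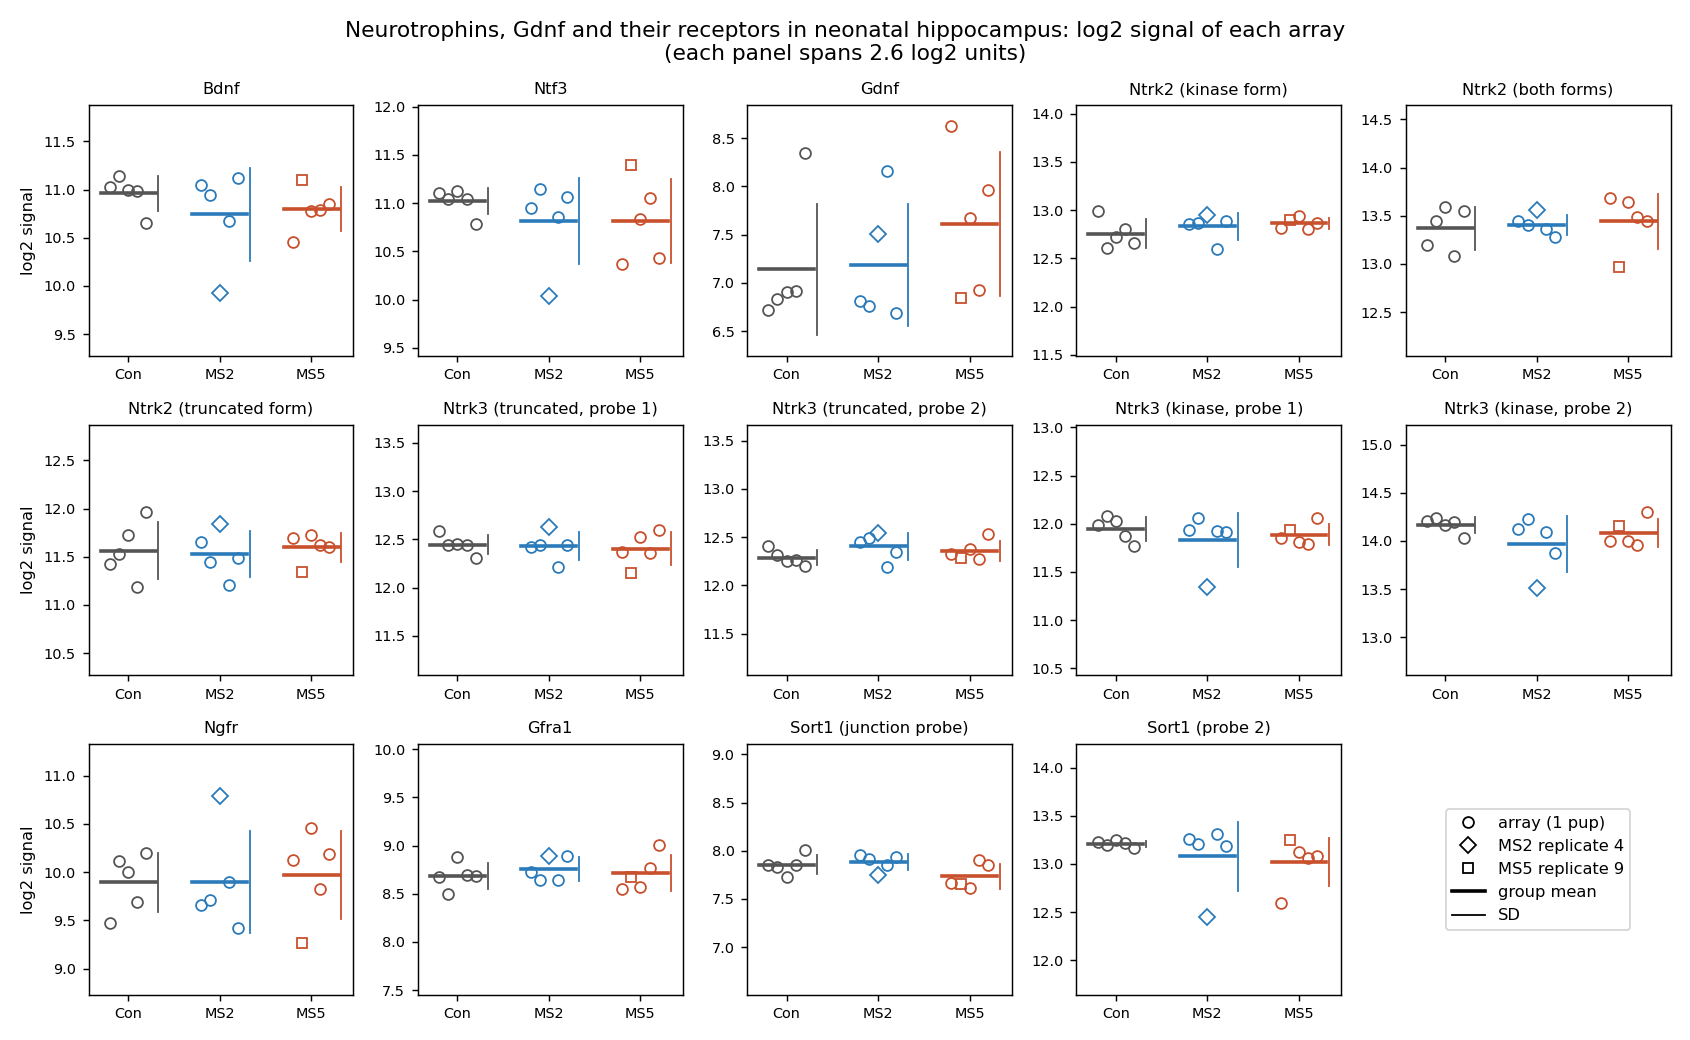
Log2 signal of each of the 14 probes (1 panel per probe, vertical axis) in Con, MS2 and MS5 (horizontal axis). Points are arrays, thick lines group means and thin lines SD over 5 arrays. The diamond (MS2 replicate 4) is the lowest point for Bdnf at 9.93, for Ntf3 at 10.04 and for Sort1 probe 2 at 12.45, and no panel shows groups that are fully separated.

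**Figure D2:**
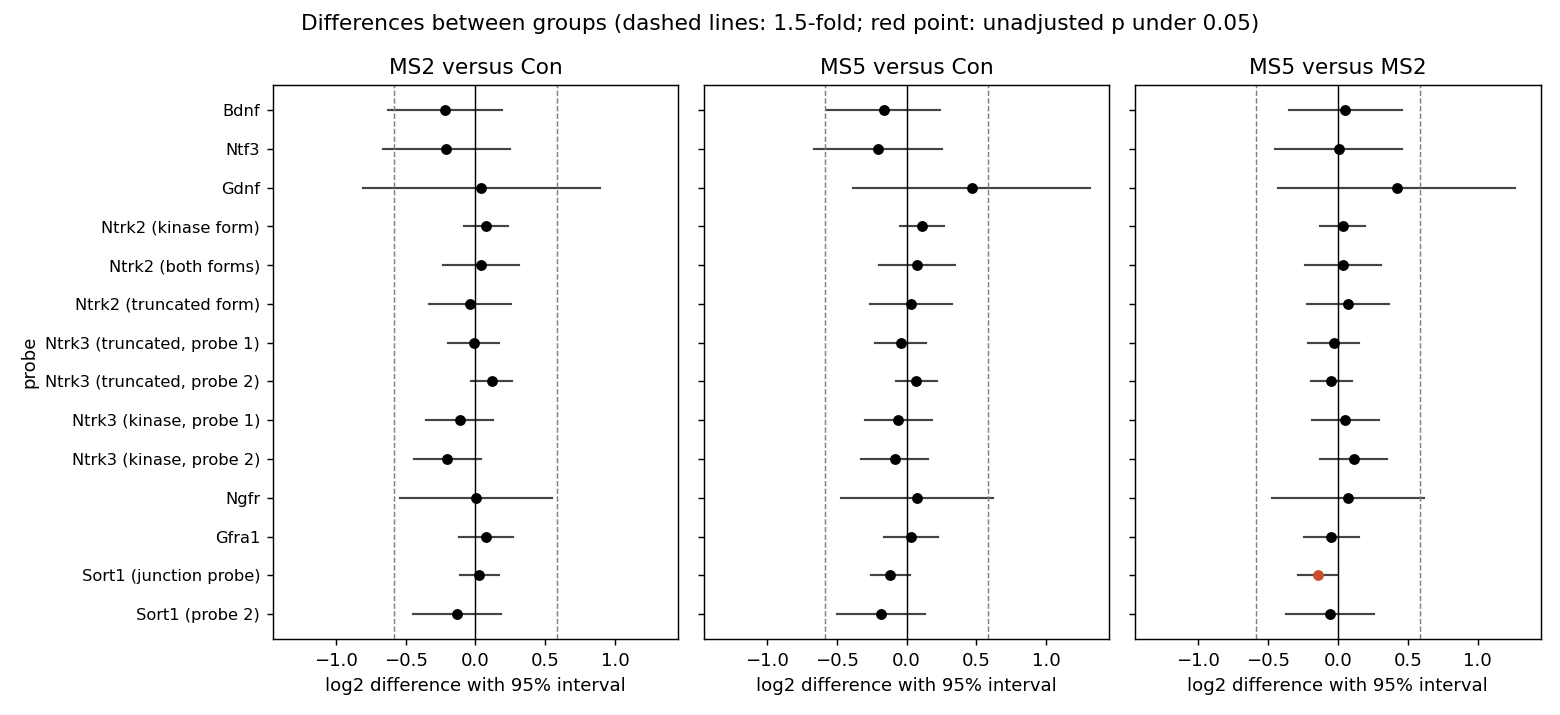
Log2 difference (horizontal axis) with its 95% confidence interval from limma for each probe (vertical axis) in 3 comparisons, with dashed lines at 1.5-fold. The single red point is Sort1 probe 1 in MS5 against MS2, at -0.15, and the widest intervals are those of Gdnf.

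Among the ligands, Bdnf was lower by a similar amount in MS2 and MS5, but by less than the spread between pups. Its log2 signal was 11.02, 11.14, 11.00, 10.98 and 10.65 in Con. In MS2 it was 11.05, 10.94, 9.93, 10.67 and 11.12, and in MS5 it was 10.46, 11.10, 10.78, 10.79 and 10.85. The lowest of all 15 arrays was MS2 replicate 4, and 4 of 5 MS5 arrays lay inside the range of Con. The differences from Con were -0.22 ± 0.19 (SE) in MS2 (limma unadjusted p = 0.268, exact p = 0.46) and -0.17 ± 0.19 in MS5 (limma unadjusted p = 0.399, exact p = 0.23), with intervals of -0.62 to 0.19 and -0.57 to 0.24. Without MS2 replicate 4 the MS2 difference was -0.02. On the first slide the Bdnf differences from Con were 0.03 in MS2 and -0.38 in MS5, and on the second slide they were -0.60 and 0.01.

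Ntf3, the ligand of TrkC, showed the same ordering of groups with a wider spread in the treated pups. Its log2 signal was 11.11, 11.04, 11.13, 11.05 and 10.79 in Con. In MS2 it was 10.95, 11.14, 10.04, 10.86 and 11.07, and in MS5 it was 10.37, 11.40, 10.84, 11.06 and 10.43. The MS5 group thus held the highest array of the series, replicate 9, beside 2 arrays that lay below all Con arrays. The differences from Con were -0.21 ± 0.21 (SE) in MS2 (limma unadjusted p = 0.339, exact p = 0.437) and -0.20 ± 0.21 in MS5 (limma unadjusted p = 0.351, exact p = 0.341). On the first slide the Ntf3 differences from Con were -0.04 in MS2 and -0.38 in MS5, and on the second slide they were -0.47 and -0.03.

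Leaving out MS2 replicate 4 and MS5 replicate 9 together, a choice made after seeing the data, brought Ntf3 past the unadjusted threshold by limma but not by the exact test. The difference between MS5 and Con became -0.35 ± 0.13 (limma unadjusted p = 0.0168, exact p = 0.0952) and that between MS5 and MS2 became -0.33 ± 0.13 (limma unadjusted p = 0.0276, exact p = 0.114), where with all arrays it was 0.01 ± 0.21. Bdnf became -0.24 ± 0.11 in MS5 against Con (limma unadjusted p = 0.0519, exact p = 0.0794). With these arrays out, 2 of 14 probes passed an unadjusted p of 0.05 in MS5 against Con and 4 in MS5 against MS2, where 5.71% and 5.84% of all probes did, and 0 passed after adjustment. Besides Ntf3, the probes were Sort1 probe 2 in both comparisons, and Ngfr and Sort1 probe 1 in MS5 against MS2. For Sort1 probe 2 all 4 remaining MS5 arrays lay below all 5 Con arrays (-0.24, exact p = 0.00794, the smallest that 126 assignments allow) and below all 4 remaining MS2 arrays (-0.27, exact p = 0.0286, the smallest that 70 allow). The Ntrk2 probe for both forms, not called by limma, was higher in all 4 remaining MS5 arrays than in all 4 MS2 arrays (0.19, exact p = 0.0286). MS5 replicate 9 was the highest MS5 array for Sort1 probe 2 (13.25) and the lowest for this Ntrk2 probe (12.97). MS2 replicate 4 was the lowest MS2 array for the former (12.45) and the highest for the latter (13.56). These separations therefore rest on which arrays were left out, and the share of all probes that separate in groups of this size was not computed. The slope on dose then passed at 3 of 14 probes, Bdnf (-0.05 ± 0.02 per mg/kg), Ntf3 (-0.07 ± 0.03) and Sort1 probe 2 (-0.05 ± 0.02), against 5.88% of all probes. Of the arrays kept, Con replicate 19, MS2 replicate 5 and MS5 replicates 8, 12 and 14 had the high striatal marker signal described below. Ntf3 was lower on these arrays than on the others kept. The part of that marker signal in the calls was not tested.

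Gdnf fell into 2 bands of arrays that cut across the groups. Its log2 signal was 6.72, 6.83, 6.90, 6.92 and 8.35 in Con. In MS2 it was 6.81, 6.76, 7.51, 8.16 and 6.69, and in MS5 it was 8.63, 6.84, 7.67, 6.92 and 7.97. The upper band of 6 arrays (7.51 to 8.63) held 1 Con, 2 MS2 and 3 MS5 arrays, and the lower band of 9 arrays (6.69 to 6.92) held 4 Con, 3 MS2 and 2 MS5 arrays. The difference from Con was 0.46 ± 0.40 (SE) in MS5 (limma unadjusted p = 0.26, exact p = 0.317) and 0.04 ± 0.40 in MS2 (limma unadjusted p = 0.917, exact p = 0.976), and the MS5 interval ran from -0.38 to 1.31. Without Con replicate 19 the MS5 difference was 0.77, and without MS5 replicate 8 it was 0.21. Within the first slide it was 0.93 and within the second -0.09.

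The summed signal of 12 striatal markers, a list drawn up after the values were seen, followed the same bands. It was 15.30 to 17.60 on the 6 arrays with high Gdnf and 14.68 to 14.84 on the 9 others. A list of 6 markers of septal and basal forebrain cholinergic neurons was at 10.94 to 12.44 on those 6 arrays and at 9.75 to 10.69 on the 9 others. The bands were not particular to Gdnf, since Ntf3 and Bdnf followed them in the other direction. Ntf3 was at 10.04 to 10.86 on those 6 arrays and at 10.95 to 11.40 on the 9 others. Bdnf was at 9.93 to 10.85 and at 10.79 to 11.14, in the same order, with a small overlap. All 12 striatal markers were well above background on all 15 arrays, and none passed an unadjusted p of 0.05 in MS2 against Con or in MS5 against Con. The part of this marker signal in the Gdnf, Ntf3 and Bdnf values was not tested.

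**Figure D3:**
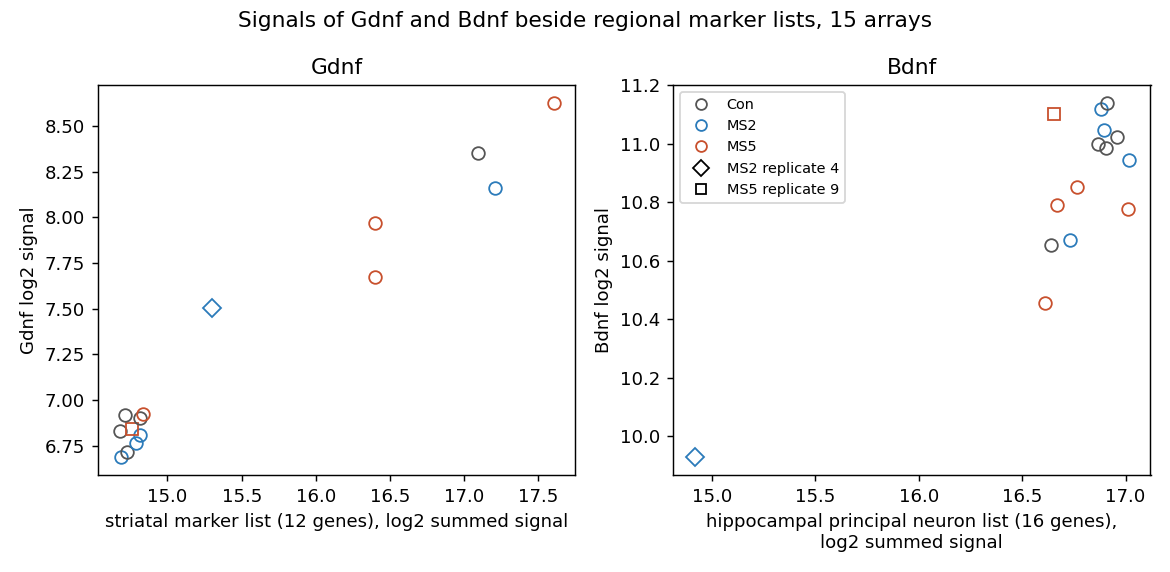
Left, Gdnf log2 signal (vertical axis) against the log2 summed signal of 12 striatal markers (horizontal axis). Right, Bdnf log2 signal against that of 16 markers of hippocampal principal neurons. Each point is 1 of 15 arrays, coloured by group. The 6 arrays with Gdnf at 7.51 or above are the 6 with striatal signal at 15.30 or above, and MS2 replicate 4 is lowest on both axes of the right panel, at 9.93 and 14.92.

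Among the receptors, Ntrk2 did not pass the test at any of its 3 probes. The probe for both forms ranged from 13.08 to 13.59 in Con, from 13.28 to 13.56 in MS2 and from 12.97 to 13.68 in MS5. The probe of the kinase form, the signalling receptor, ranged from 12.60 to 12.99 in Con, from 12.59 to 12.95 in MS2 and from 12.80 to 12.94 in MS5. The probe of the truncated form, which is known as the form of astrocytes, ranged from 11.18 to 11.96 in Con, from 11.20 to 11.84 in MS2 and from 11.34 to 11.72 in MS5. All 3 ranges overlapped for each probe.

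The Ntrk2 differences between MS5 and Con were 0.11 ± 0.07 (SE) for the kinase form (limma unadjusted p = 0.165, exact p = 0.167), 0.07 ± 0.13 for both forms (limma unadjusted p = 0.573, exact p = 0.698) and 0.03 ± 0.14 for the truncated form (limma unadjusted p = 0.813, exact p = 0.833). In MS2 they were 0.08 ± 0.07, 0.04 ± 0.13 and -0.04 ± 0.14, in the same order. Without Con replicate 15 the kinase-form difference in MS5 was 0.17 with an unadjusted p of 0.0261. The kinase-form probe is printed on 10 spots of each array, of which the authors' value is the first. The SD of its 10 spots had a median of 0.148 over the arrays, and the authors' value lay up to 0.323 from the mean of the spots. With spots averaged the kinase-form difference was 0.09 ± 0.06 in MS5 and 0.07 ± 0.06 in MS2.

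Ntrk3, the receptor of NT-3, has 2 probes for each form, and the forms parted on 1 array. Kinase probe 1 read 11.98, 12.08, 12.03, 11.87 and 11.77 in Con. It read 11.93, 12.06, 11.34, 11.92 and 11.91 in MS2 and 11.85, 11.93, 11.81, 11.79 and 12.05 in MS5. The low MS2 value was again replicate 4, and the rest of the MS2 arrays lay within the Con range. Kinase probe 2 was also lowest on that array, at 13.51, against 14.03 to 14.24 in Con and 13.96 to 14.30 in MS5. Both truncated-form probes were at their highest of all 15 arrays there, with 12.63 for probe 1 and 12.55 for probe 2.

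The Ntrk3 differences from Con in MS2 were -0.11 ± 0.11 (SE) and -0.20 ± 0.11 for kinase probes 1 and 2 (limma unadjusted p = 0.332 and 0.095, exact p = 0.556 and 0.159). For truncated probes 1 and 2 they were -0.01 ± 0.09 and 0.12 ± 0.07 (limma unadjusted p = 0.884 and 0.108, exact p = 0.857 and 0.135). In MS5 they were -0.06 ± 0.11 and -0.09 ± 0.11 for the kinase form and -0.04 ± 0.09 and 0.07 ± 0.07 for the truncated form. Without MS2 replicate 4 the MS2 differences of the kinase probes were 0.01 and -0.09. Truncated probe 2 was above all Con arrays on 3 of 5 MS2 arrays, and without MS2 replicate 5 its difference was 0.17 with an unadjusted p of 0.0141. Kinase probe 2 reached -0.27 without MS2 replicate 3 (limma unadjusted p = 0.0317).

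The ratio of kinase to truncated signal was computed for each array and expressed relative to the mean of Con, since probes cannot be compared in level. For Ntrk3 it was 0.00 ± 0.08 in Con, -0.21 ± 0.38 in MS2 and -0.09 ± 0.13 in MS5 (mean ± SD, log2, n = 5 each). The MS2 mean rested on replicate 4, at -0.85, with the other MS2 arrays between -0.19 and 0.11. Exact two-sided permutation tests gave p = 0.254 for MS2 against Con and p = 0.246 for MS5 against Con, and 252 assignments of 5 against 5 allow no p below 0.00794. Without MS2 replicate 4 the first difference was -0.05 (exact permutation p = 0.516). Without MS5 replicate 9 the second was -0.14 (exact permutation p = 0.0317), with 4 of 4 remaining MS5 arrays below the Con mean. For Ntrk2 the ratio was 0.00 ± 0.39 in Con, 0.11 ± 0.14 in MS2 and 0.08 ± 0.17 in MS5, and the exact permutation p was 0.563 and 0.683 against Con. In Con the Ntrk2 ratio itself ran from -0.50 to 0.43, a wider range than in either treated group.

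**Figure D4:**
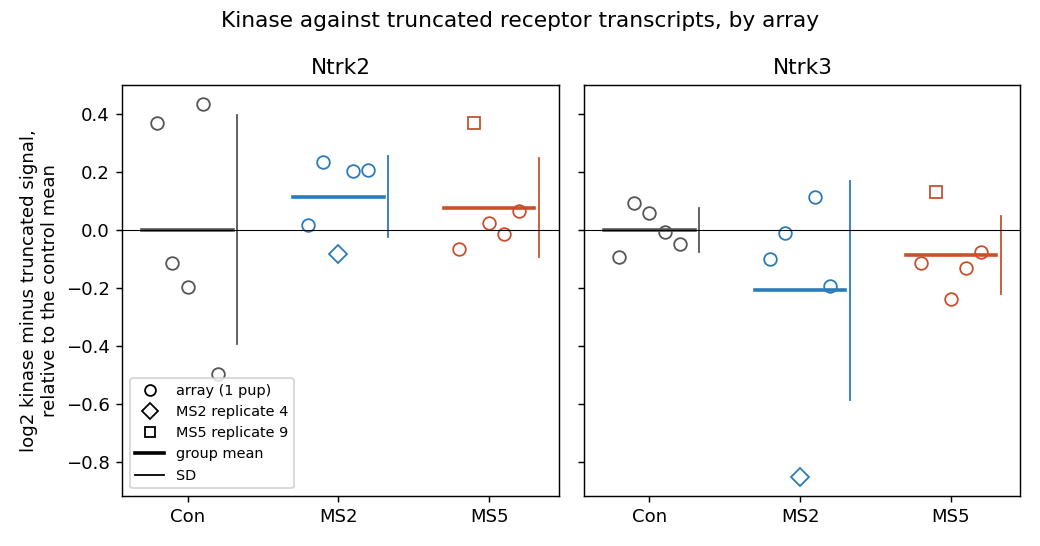
Log2 signal of kinase-form minus truncated-form probes, relative to the Con mean (vertical axis), for Ntrk2 and Ntrk3 on each array of the 3 groups (horizontal axis), with group means and SD. For Ntrk3 the diamond, MS2 replicate 4, stands at -0.85, and 4 of 5 MS5 arrays lie below 0.

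Ngfr, which encodes p75, had nearly the same mean in all groups and a wide spread within each. Its log2 signal was 9.47, 10.12, 10.00, 9.69 and 10.20 in Con. In MS2 it was 9.66, 9.72, 10.79, 9.90 and 9.42, and in MS5 it was 10.12, 9.26, 10.45, 9.82 and 10.18. The highest array was MS2 replicate 4 and the lowest MS5 replicate 9, the arrays that stand apart on the regional markers and on Xist. The differences from Con were 0.00 ± 0.25 (SE) in MS2 (limma unadjusted p = 0.992, exact p = 1) and 0.07 ± 0.25 in MS5 (limma unadjusted p = 0.774, exact p = 0.77). Between MS5 and MS2 the difference was 0.07 ± 0.25 (limma unadjusted p = 0.781, exact p = 0.825), and 0.47 ± 0.17 without those arrays (limma unadjusted p = 0.0135, exact p = 0.0571). The probe is printed on 10 spots, and with spots averaged the differences from Con were 0.02 ± 0.25 and 0.09 ± 0.25.

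Gfra1, the ligand-binding part of the GDNF receptor, ranged from 8.49 to 8.88 in Con, from 8.64 to 8.90 in MS2 and from 8.55 to 9.01 in MS5. The 3 ranges overlapped almost fully. Its differences from Con were 0.08 ± 0.09 (SE) in MS2 (limma unadjusted p = 0.42, exact p = 0.444) and 0.03 ± 0.09 in MS5 (limma unadjusted p = 0.749, exact p = 0.786).

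Sort1, which encodes sortilin, held the single probe that passed the unadjusted test in MS5 against MS2. Probe 1, across the exon junction, read 7.85, 7.84, 7.72, 7.86 and 8.00 in Con. It read 7.96, 7.91, 7.75, 7.85 and 7.94 in MS2 and 7.66, 7.65, 7.62, 7.90 and 7.85 in MS5. In MS5, 3 of 5 arrays lay below every Con and every MS2 array, and the other 2 lay among them. The difference between MS5 and MS2 was -0.15 ± 0.07 (SE), or 0.904-fold, with an interval of -0.29 to 0.00 (limma unadjusted p = 0.0444, adjusted p = 1 over all probes after rounding). The exact two-sided permutation p was 0.0714. Of the 15 fits that each left out 1 array, 5 kept an unadjusted p under 0.05, with differences of -0.19 to -0.12. The difference was -0.15 within the first slide and -0.09 within the second.

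Against Con, Sort1 probe 1 differed by -0.12 ± 0.07 in MS5 (limma unadjusted p = 0.0978, exact p = 0.135) and by 0.03 ± 0.07 in MS2 (limma unadjusted p = 0.673, exact p = 0.611). Without Con replicate 17 the MS5 difference was -0.15 (limma unadjusted p = 0.0452), and without MS5 replicate 13 it was -0.16 (limma unadjusted p = 0.0282). These were the only 2 under 0.05 of 15 fits that each left out 1 array.

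Sort1 probe 2 was nearly constant in Con, at 13.23, 13.20, 13.24, 13.22 and 13.16. It read 13.26, 13.21, 12.45, 13.31 and 13.18 in MS2 and 12.60, 13.25, 13.12, 13.07 and 13.08 in MS5. In MS5, 4 of 5 arrays lay below all Con arrays and replicate 9 lay above all of them. The difference between MS5 and Con was -0.19 ± 0.15 (SE, limma unadjusted p = 0.226), and the exact two-sided permutation p was 0.0556. Within the first slide it was -0.40, and within the second it was -0.03. Between MS5 and MS2 this probe differed by -0.06 ± 0.15 (limma unadjusted p = 0.703, exact p = 0.643), and by -0.22 without MS2 replicate 4 (limma unadjusted p = 0.04). That fit was the only 1 under 0.05 of 15 that each left out 1 array. With the Sort1 probes averaged, MS5 differed from MS2 by -0.10 (limma unadjusted p = 0.283), so that the call on probe 1 was not shared by the gene mean.

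Several members moved together from array to array. Over the 15 arrays, without regard to group, Bdnf had a Pearson r of 0.86 with Ntf3 (Spearman 0.70) and of -0.76 with Ngfr (Spearman -0.72). Ntf3 had r = -0.80 with Ngfr (Spearman -0.79), and Bdnf had r = 0.85 with Sort1 probe 2 (Spearman 0.54). Without MS2 replicate 4 these values were 0.73, -0.59, -0.67 and 0.66 over 14 arrays. The points share the same arrays and normalization, so these values describe the arrays and carry no p.

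Among 36281 probes above background on all arrays, the named genes most like each member over the 15 arrays were as follows, with unnamed transcripts left out. For Bdnf they were Cnr1, the CB1 cannabinoid receptor (r = 0.98), Sec24d (0.98) and St6galnac5 (0.97). For Ntf3 they were Pappa2 (0.93), Calm2 (0.92) and Lhx2 (0.91). For Gdnf they were Drd2, the D2 dopamine receptor (0.98), Penk, the precursor of enkephalin (0.97), and Adcy5 (0.97), all 3 of them on the striatal list. That list was drawn up after the values of these arrays were seen, so the overlap is not a separate test. For Ngfr they were Cryz (0.94), Dhdh (0.92) and Six3os1 (0.92). For the kinase form of Ntrk2 they were Gng3 (0.90), Oxsr1 (0.90) and Rg9mtd3 (0.89), and for truncated probe 1 of Ntrk3 they were Ampd2 (0.92), Gstm6 (0.91) and Adamts6 (0.88). The highest r was lower for Gfra1, with Usp51 (0.81), Elac1 (0.79) and Pms2 (0.77), and for Sort1 probe 1, with Il1rl1 (0.80), Zfp280c (0.80) and Rpl27 (0.79). The highest r that unrelated probes would reach in a search of this size over 15 arrays was not computed. The values for Gfra1 and Sort1 probe 1 therefore cannot be read as likeness. Without MS2 replicate 4 the first gene of each list had r = 0.95 for Bdnf, 0.88 for Ntf3, 0.98 for Gdnf and 0.91 for Ngfr.

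Of 100 further genes of the neurotrophin and GDNF pathways, 98 were measured, with 1 probe for each. In MS2 against Con 2 of 98 passed an unadjusted p of 0.05, in MS5 against Con 2, and in MS5 against MS2 3. The background over all genes was 4.06%, 4.2% and 3.93%, in the same order. After adjustment 0 of 98 passed in each. Their median differences were 0.01, 0.00 and -0.01, beside 0.00, 0.00 and 0.00 over all genes.

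Ntf5, the gene of neurotrophin-4, which also binds TrkB, was lower in MS5 than in Con by the unadjusted tests only. Its log2 signal was 7.01, 7.27, 7.61, 7.27 and 7.18 in Con. In MS2 it was 7.30, 7.23, 6.73, 6.87 and 7.07, and in MS5 it was 6.96, 6.76, 7.02, 6.98 and 6.54. The MS5 and Con arrays overlapped only by the highest MS5 array and the lowest Con array. The difference was -0.42 ± 0.13 (SE, limma unadjusted p = 0.00562, adjusted p = 1 after rounding, exact two-sided permutation p = 0.0159). All 15 fits that left out 1 array kept an unadjusted p under 0.05, with differences of -0.48 to -0.33. Within the first slide the difference was -0.33 and within the second -0.45. In MS2 it was -0.23 ± 0.13 (limma unadjusted p = 0.0954, exact p = 0.175), and the difference between MS5 and MS2 did not pass the test. Ntf5 was well above background on all arrays but sat near the low end of the signal range, and it is 1 of 98 genes examined.

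Nrtn, Artn and Pspn, the other GDNF family ligands, did not pass in any comparison. Ret, the kinase of the GDNF receptor, differed by 0.21 ± 0.26 in MS2 and by 0.04 ± 0.26 in MS5. It was highest on MS2 replicate 4, at 10.18, against 8.40 to 9.00 elsewhere.

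Among the receptor relatives, Sorcs1, of the sortilin family, had the widest differences, 0.40 ± 0.29 in MS2 and 0.45 ± 0.29 in MS5 (limma unadjusted p = 0.191 and 0.147, exact p = 0.31 and 0.0952), with 10.20 on MS2 replicate 4. A second Sorcs1 probe differed by 0.49 ± 0.28 in MS2 and 0.55 ± 0.28 in MS5 (limma unadjusted p = 0.108 and 0.0715). Sorcs2, Sorcs3 and Sorl1 did not pass. Gfra4, a coreceptor of the GDNF family, was higher in MS5 than in Con by 0.25 ± 0.11 (limma unadjusted p = 0.0464, exact p = 0.151) at 1 of 3 probes. The other Gfra4 probes differed by 0.00 and -0.04, and the first probe lost its call in 12 of 15 refits lacking 1 array each, at differences of 0.17 to 0.34 and an unadjusted p of up to 0.139 (without Con replicate 18). It kept the call only without Con replicate 16, MS2 replicate 4 or MS5 replicate 13. Gfra2, Gfra3, Gfral and Ncam1 did not pass at the probe used for the count. Of the other Ncam1 probes, 1 passed in MS2 against Con (0.25 ± 0.11, limma unadjusted p = 0.0364, adjusted p = 0.97) and 1 did not (0.04 ± 0.17). Gfral was well above background on no array.

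The remaining genes that passed fell short of the size set for naming genes and are given after their values were seen. In MS2 against Con they were Rhoa (0.12 ± 0.05), a small GTPase downstream of p75, and Zfp110 (-0.24 ± 0.08), which encodes the p75-binding protein NRIF. In MS5 against MS2 they were Plg (-0.13 ± 0.04), the plasminogen gene, Pik3r1 (0.11 ± 0.04), a PI3-kinase regulatory subunit, and Nptx2 (-0.27 ± 0.09), an activity-regulated pentraxin. Plg was well above background on 1 of 15 arrays. The exact permutation p was 0.0794 for Rhoa, 0.00794 for Zfp110, 0.0397 for Plg, 0.0476 for Pik3r1 and 0.0159 for Nptx2. Zfp110, Plg and Nptx2 kept an unadjusted p under 0.05 in all 15 fits that left out 1 array. Rhoa lost its call in 5 of 15, without Con replicates 18 or 19 or MS2 replicates 1, 3 or 5, with an unadjusted p of up to 0.124. Pik3r1 lost it in 6 of 15, without MS2 replicates 3, 4 or 5 or MS5 replicates 9, 13 or 14, with an unadjusted p of up to 0.0857.

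By list, 0 of 12 genes of neurotrophin processing enzymes, 0 of 31 Trk adaptors and signalling genes and 0 of 19 p75 partners passed in MS5 against Con. Of 20 transcripts known to respond to TrkB signalling, immediate early genes among them, 0 passed limma's test in either comparison with Con. Their differences leaned low, with 14 of 20 lower in MS2 (median -0.08) and 14 of 20 lower in MS5 (median -0.08), where 18976 and 18189 of 36163 genes were lower. These comparisons share the Con arrays. By the exact test, genes under 0.05 numbered 1 of 98 in MS2 against Con, 4 in MS5 against Con and 3 in MS5 against MS2. The share of all genes under an exact p of 0.05 was not computed, so these counts cannot be set against a background. The 3 of them not called by limma were all in MS5 against Con. Dusp6, a phosphatase that inactivates ERK, was lower on all 5 MS5 arrays (12.87 to 13.14) than on all 5 Con arrays (13.16 to 13.40), with a difference of -0.26 ± 0.14 (limma unadjusted p = 0.0735, exact p = 0.00794). Such separation in MS5 against Con was seen at 0.828% of all probes. The Dusp6 difference was -0.16 within the first slide and -0.36 within the second. Sst, the somatostatin gene of interneurons, was at 14.61 to 14.78 in MS5 and 14.25 to 14.72 in Con, a difference of 0.24 ± 0.12 (limma unadjusted p = 0.0610, exact p = 0.0397). Shc3, a Trk adaptor, differed by -0.15 ± 0.11 (limma unadjusted p = 0.189, exact p = 0.0238). These 3 genes were chosen after their values were seen. The lowest differences from Con among the 20 transcripts known to respond to TrkB signalling were Egr4 in MS2 (-0.57 ± 0.44, limma unadjusted p = 0.209, exact p = 0.468) and Arc in MS5 (-0.43 ± 0.24, limma unadjusted p = 0.0908, exact p = 0.119). They too were chosen after their values were seen.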

How the data were processed

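Total RNA from the pooled hippocampi of single pups was labelled and hybridized to 8x60K arrays. The intensity of each spot was deposited as written by the Agilent scanner software (Feature Extraction 10.7.1.1), not normalized between arrays. The log2 values used here are those the authors deposited after normexp background adjustment and quantile normalization. Repeating these steps on the intensity files (offset 50) returned each log2 value of the first spot of a probe to within 5.0e-09, and averaging spots moved 432 probes by more than 0.01. Quantile normalization makes the distribution of signal equal on all arrays, so a shift of all transcripts at once would not be seen.

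Groups were taken from the labels, and 3671 control spots were left out. Groups were compared with limma 3.58.1 in R 4.3.3 (lmFit and eBayes), with all 15 arrays in 1 fit of 3 groups across 55681 probes. The study's threshold, 1.5-fold with an unadjusted p under 0.05, was kept, and Benjamini-Hochberg adjustment ran over the whole table of probes. Exact permutation tests were two-sided over 252 assignments. For counts over genes, the probe named A_51 or A_52 stood for a gene, otherwise the one with the highest mean level. A marker list's level is log2 of the summed linear signal of its genes. All 8 member symbols and the accessions of all 14 probes matched the RefSeq gene table. Probe positions are those of the array annotation (mm9). The limma comparison of MS5 with Con was tested on simulated data with independent noise at each probe and array. That simulation held no array that stood apart as a whole, and the other steps were not tested in it.

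Every member probe is reported. Other pathway genes were to be named if over 1.25-fold at an unadjusted p under 0.05, or as members of the neurotrophin and GDNF families, and for the representative probe of each member the 3 most similar genes were named. The members and lists were chosen with earlier results of these data known. The alternatives were spots averaged, an offset of 0, the processed signal scaled to the 75th percentile, median centring, array weights, a filter on dim probes, the slide as a block, each slide alone, only the groups compared, the mean of a gene's probes, and leaving out each array. The miR arrays of the series were not used here. The number of arrays limits the precision. Some members of the pathway lists are not reported here.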

Additional observations from a re-analysis of the deposited data

Results flagged for a closer look

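Of 42 groups of 5 arrays (14 probes in 3 groups), 7 held an array whose gap to its nearest neighbour was over 0.71 of the range of the group (Dixon's test, which chance alone passes in about 1 in 20 groups). On MS2 replicate 4 these were Ntf3 at 10.04, kinase probe 1 of Ntrk3 at 11.34 and Sort1 probe 2 at 12.45, each the lowest of its group. On Con replicate 19 they were Ntf3, lowest at 10.79, and Gdnf, highest at 8.35. The others were the kinase-form probe of Ntrk2, lowest at 12.59 on MS2 replicate 5, and Sort1 probe 2, lowest at 12.60 on MS5 replicate 8. MS2 replicate 4 had the lowest signal of hippocampal principal neuron markers and Con replicate 19 the highest striatal signal among Con arrays (17.09), and MS2 replicate 5 had the lowest median spot signal. The part of these features in the values was not tested.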

How the results depend on the processing

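After adjustment over all probes, 0 of 14 probes passed in any of 24 alternatives of each comparison. At an unadjusted p under 0.05 the counts were small and moved. The share of all probes under that p moved with the setting too. It ran from 1.47% to 7.49% in MS2 against Con, from 1.22% to 6.42% in MS5 against Con and from 1.01% to 9.69% in MS5 against MS2. Each time it was lowest with median centring and highest with array weights. The counts below are therefore to be read beside these shares, with which they did not always move. With median centring in MS2 against Con the share of all probes fell from 4.17% to 1.47%. The count of pathway genes there rose from 2 to 6. For the members in MS5 against MS2 the count of 1 became 0 with an offset of 0, the 75th percentile scaling, median centring, the slide as a block, only the groups compared or the filter on dim probes, 2 with array weights and 4 without MS2 replicate 4 and MS5 replicate 9 together. In MS2 against Con the count of 0 became 1 with array weights, and without those arrays MS5 against Con became 2 and the dose slope 3. Leaving out each array in turn gave 0 to 1 probes in MS2 against Con, 0 to 1 in MS5 against Con, 0 to 2 in MS5 against MS2 and 0 to 1 for the dose slope. For the pathway genes the count of 2 in MS2 against Con became 1 (offset 0, only the groups compared, filter), 6 (median centring, array weights), 5 (slide as a block) and 4 (without those arrays). In MS5 against Con 2 became 1 (offset 0, 75th percentile), 6 (array weights), 4 (slide as a block), 7 (only the groups compared) and 9 (without those arrays). In MS5 against MS2 3 became 0 (median centring), 6 (array weights), 1 (filter) and 9 (without those arrays). Leaving out each array gave 1 to 7, 1 to 7 and 2 to 6 pathway genes. Of the 42 member differences 34 changed sign in at least 1 alternative (109 of 1119 values), none of them under an unadjusted p of 0.05 with the reported settings. With the sign changed, 1 value had an unadjusted p under 0.05, Ntf3 in MS5 against MS2 at -0.33 without those arrays. Sort1 probe 1 in MS5 against MS2, the 1 difference called, stayed negative in all its alternatives. The cause was not tested. Array weights also brought Gdnf (0.73, MS5 against MS2) and truncated probe 2 of Ntrk3 (0.14, MS2 against Con) under an unadjusted p of 0.05. The litter of each pup was not used here, so no paired analysis was made and the p-values treat the pups as independent. The paper states that treated pups went back to a home cage that held untreated littermates, so litters may cross the groups. With 5 arrays per group the data bound most receptor probes to within 1.5-fold but not Gdnf, and replicates left out leave 4 in a group.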
